A study of Capra hircus with 24 samples.

Results

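RNA of milk fat globules was compared with RNA of milk somatic cells in 8 female dairy goats. The comparison took the 8 arrays titled milk fat globules (MFG) and the 8 arrays titled milk somatic cells (MSC), 16 of the 24 arrays of the series. The 4 groups are MFG of the Polish White Improved breed (PWI), MFG of the Polish Fawn Improved breed (PFI), MSC of PWI and MSC of PFI, with 4 goats each. All goats were healthy and in 3rd lactation, the labels name no experimental treatment, and both breeds were averaged with no contrast between them. The remaining 8 arrays held peripheral nuclear cells of blood (PNCB) of the same series and serve here as a level to set the milk values against. The sample was labelled with Cy5 on each array. The Cy3 channel held one common reference, peripheral nuclear blood cell RNA pooled over 7 healthy animals of both breeds (4 PWI and 3 PFI) that were in their 4th lactation. A log2 ratio of 0 therefore means the level of pooled blood RNA. Per the labels' protocols, both milk sources were extracted with the same kind of kit and blood with another. The design describes 8 goats from which RNA of all 3 sources was isolated, and equal goat numbers within a breed are read here as the same animal.

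Milk fat globules are lipid droplets that bud from the apical surface of mammary secretory epithelial cells. Each is wrapped in the cell's plasma membrane and can enclose a crescent of its cytoplasm, so the RNA they carry derives largely from cells that are secreting milk. Milk somatic cells are a mixture of leukocytes that entered the milk, such as macrophages, neutrophils and lymphocytes, and of epithelial cells shed from the gland. In such samples a smaller share of one cell type and less RNA per cell of that type cannot be told apart. The array was designed for cattle (build UMD 3.1, bosTau6, per the file headers) so mismatches between cattle and goat transcripts can lower a signal. The files pair probes with transcript accessions and not with gene symbols, and the goat gene table at hand held 0 of the 26748 accessions. Genes are therefore not named, the cell type markers that would test the labels of both sources could not be looked up, and probes are described by number, level and accession.

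The MFG arrays of PWI goats 2 and 4 stood apart from the other 14 milk arrays. Their Cy5 signal was well above background at 84.6% and 75.3% of the 43653 probes, against 44.1% to 51.5% on the other 6 MFG arrays and 51.2% to 60.9% on the MSC arrays. Their reference channel stood apart as well, at 88.0% and 71.5% against 53.4% to 57.1% on the other MFG arrays. On the array of PWI goat 2 the spike-in controls gave a slope of 0.489 against their known ratios, where the other 15 milk arrays gave 0.758 to 0.887. No spot was saturated. The blood arrays of PWI goats 3 and 4, which enter the estimate of spread, had 8.60% and 21.2% of their spots flagged as outliers, against 2.31% to 3.73% on the milk arrays. Each group lies on a slide of its own, and all MFG arrays were scanned on another day than all MSC arrays, so scan day and source cannot be told apart. Results that rest on these 2 arrays are given with and without them.

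**Figure D1:**
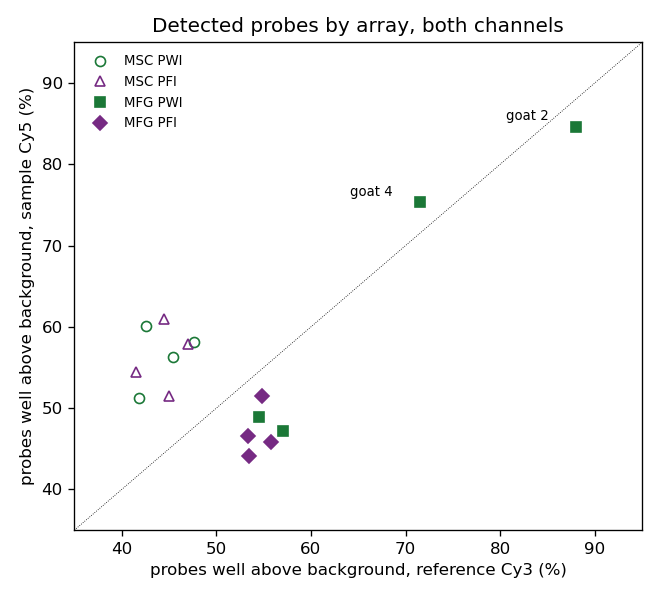
Share of probes well above background in the reference channel (x axis, %) and in the sample channel (y axis, %), 1 point per milk array, open for MSC and filled for MFG, with the dotted line marking equal shares. The MFG arrays of PWI goats 2 and 4 lie at 84.6% and 75.3% on the y axis, above all other milk arrays.

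At least 2-fold lower levels in MFG than in MSC were more frequent than at least 2-fold higher ones. By limma with Benjamini-Hochberg adjustment, 9534 of 27383 probes passed an adjusted p of 0.05, which is 34.8% of those tested. Of these, 3458 (12.6%) were higher and 6076 (22.2%) lower in MFG. Without the MFG arrays of PWI goats 2 and 4, which stood apart, 5504 were higher and 5245 lower, so the excess of lower probes with no fold limit rested on these arrays. With a limit of 2-fold the counts were 361 higher (1.32%) against 2169 lower (7.92%), and with a limit of 4-fold 38 (0.139%) against 556 (2.03%). The 1st percentile of all log2 differences was -2.55 and the 99th percentile 1.07. The largest single differences were 3.70 upward and -5.07 downward. The median SE of a log2 difference was 0.14, and for 81.3% of the probes the 95% interval lay within 2-fold in either direction. Counted by accession, 2732 had at least 1 higher and no lower probe, 4137 at least 1 lower and no higher probe, 84 had both and 9869 had neither. The split of higher and lower calls depended on the scaling, as described with the settings. Within the PWI goats alone 3389 probes were called (288 higher and 3101 lower), and within the PFI goats alone 9428 were (49.6% of them higher).

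**Figure D2:**
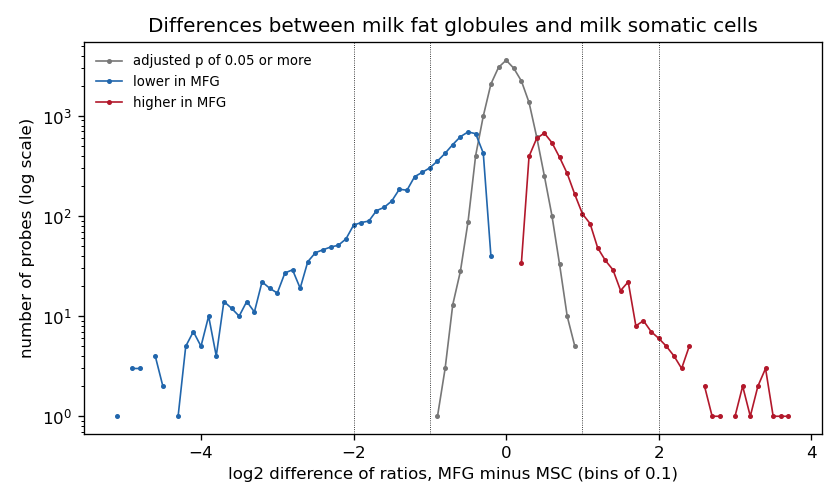
Number of probes (y axis, log scale) by log2 difference of the ratios, MFG minus MSC (x axis, bins of 0.1), for probes higher in MFG, lower in MFG and not past the threshold, with dotted lines at 2-fold and 4-fold. The lower tail reaches -5.07 and holds 556 probes beyond 4-fold, against 38 in the upper tail.

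The probes that rose most in MFG by the naming rule were A_73_P036246 and A_73_114883. The rule took probes past the threshold, at least 2-fold apart, with one sign in every goat and detected above background throughout the source with the stronger signal, using the brightest probe of each accession. It was met by 54 accessions higher and 920 lower in MFG, or 171 and 1079 with the sign required only in the 6 goats other than PWI 2 and 4, and 2 of the accessions in each direction are given. The log2 ratio of A_73_P036246 (NM_001098999) in MFG was lowest at 1.84, had a median of 3.52 and was highest at 4.92. In MSC the same values were -0.44, 0.02 and 0.34, and in 7 blood samples with a value -0.17, 0.26 and 0.55. MSC and blood thus both lay near the reference level, and all 8 MFG arrays lay above every other array. The mean was 3.51 ± 1.11 in MFG and 0.01 ± 0.24 in MSC (SD, n = 8 each), a log2 difference of 3.50 (SE 0.32, limma adjusted p = 5.25e-08). Its accession had 4 tested probes, which all rose, with differences of 2.59, 3.50, 3.57 and 3.70, the first from a probe not well above background on any MSC array.

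A_73_114883 (NM_001102278) lay below the reference in MSC and above it in MFG. In MFG its log2 ratio was lowest at 0.26, had a median of 2.35 and was highest at 3.49. In MSC these values were -1.68, -1.26 and -0.74, and in blood -1.13, -0.08 and 0.34. The milk sources did not overlap, and blood lay between their medians. The log2 difference of MFG over MSC was 3.43 (SE 0.36, limma adjusted p = 1.48e-07). The other tested probes of the accession were also higher, but by less, with differences of 1.74 and 1.86.

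By the same rule, the probes given for the lower side were A_73_P095346 and A_73_120005. The log2 ratio of A_73_P095346 (ENSBTAT00000038757) in MFG was lowest at -5.81, had a median of -3.69 and was highest at -1.25. In MSC these values were -0.19, 1.60 and 2.37, and in 7 blood samples -0.48, 0.24 and 0.69. MFG lay below the reference on every array. The probe was well above background on 7 of the 8, and its lowest value came from the other one, the array of PWI goat 2 that stood apart. The log2 difference was -4.87 (SE 0.47, limma adjusted p = 8.72e-08), and -4.52 without that array (limma adjusted p = 6.87e-08), and the probe is the only one of its accession that was tested.

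A_73_120005 (JX560188) differed from it in where MSC stood. Its log2 ratio in MSC was lowest at 2.28, had a median of 3.52 and was highest at 4.57, above blood on every array. In blood the values were -0.40, -0.07 and 0.63, and in MFG -3.54, -1.21 and 0.90. MFG and MSC did not overlap. The MFG array of PWI goat 1, at 0.90, lay above every blood array, and the other MFG arrays lay below every blood array. The mean was -1.35 ± 1.30 in MFG and 3.51 ± 0.81 in MSC (SD, n = 8 each), a log2 difference of -4.87 (SE 0.42, limma adjusted p = 2.2e-08), and no other probe of its accession was tested. In all 4 probes the goats varied more in MFG than in MSC, with SDs of 1.11 to 1.30 against 0.24 to 0.998 on the log2 scale. For A_73_P095346, with SDs of 1.27 and 0.998, this rested on the MFG array of PWI goat 2, where the probe was not well above background. A larger spread in MFG was not general. The median SD over probes was 0.148 in MFG and 0.209 in MSC of PFI. In PWI, whose MFG group holds the 2 arrays that stood apart, it was 0.267 in MFG and 0.164 in MSC. The rule required that the goats share a sign, so that the sources do not overlap is no separate evidence.

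**Figure D3:**
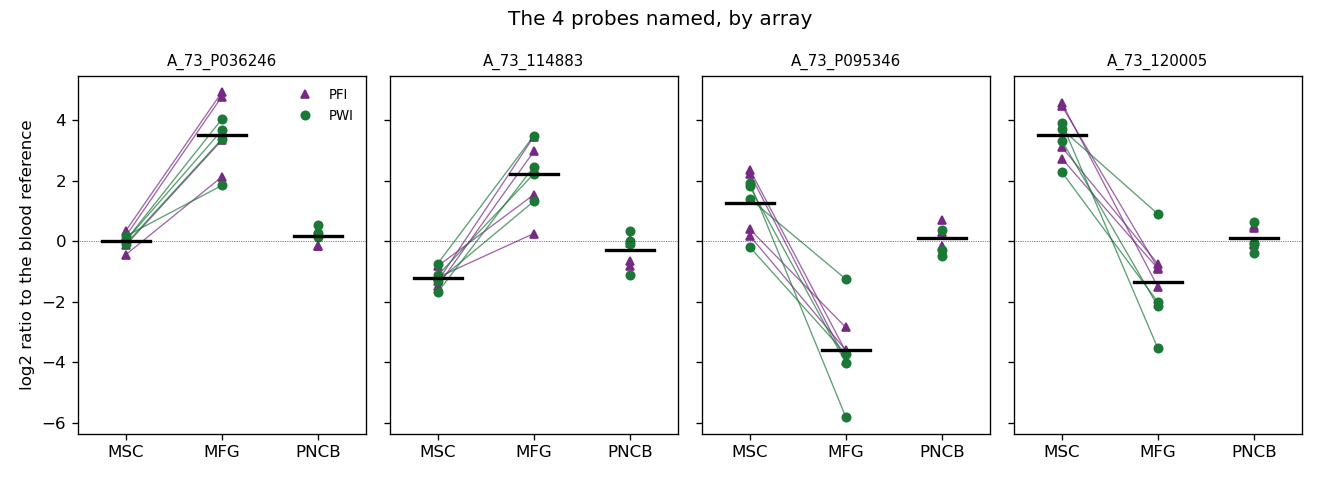
Log2 ratio to the blood reference (y axis) of the 4 probes named, 1 point per array (circles PWI, triangles PFI), with lines joining MSC and MFG of the same goat number and bars at the mean of each source. A_73_P036246 and A_73_114883 rise from MSC to MFG in every goat and A_73_P095346 and A_73_120005 fall in every goat, with goat differences of -7.45 to -2.80 for A_73_120005.

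Probes higher and lower in MFG stood at different levels against blood. As a description of the sets chosen by this contrast, the 361 probes at least 2-fold higher in MFG had a median log2 ratio of 2.94 in MFG, 1.64 in MSC and 0.03 in PNCB. In MSC 65.9% of them were already at least 2-fold above the blood reference, against 8.27% of all probes tested. The 2169 probes at least 2-fold lower in MFG had medians of -1.46 in MFG, 0.21 in MSC and -0.02 in PNCB. In MSC 51.6% of these were within 2-fold of the reference, against 83.5% of all probes tested, 27.2% were above that range against 8.27%, and 21.2% below it against 8.25%. In MFG 62.1% of them were at least 2-fold below the reference, against 14.4% of all probes. The higher set thus had medians above blood in both milk sources. In MSC the lower set spread to both sides of the blood level more often than probes in general. However, with probes in 4 equal classes by mean Cy5 level, 1 probe of the lower set came from the dimmest class and 1255 from the brightest. The spread was not compared at equal brightness. PNCB medians near 0 are no trait of these sets, since 99.8% of all probes tested lay within 2-fold of the blood reference in PNCB.

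How many probes had one direction in every goat depended on PWI goats 2 and 4. A value in all 8 pairs of same-numbered arrays was had by 18609 probes, of which 829 were higher in MFG in 8 of 8 goats and 3375 lower in 8 of 8. Over the 6 goats other than PWI 2 and 4, 4493 of the same probes were higher in every goat and 4080 lower in every goat. Among calls of at least 2-fold with 8 pairs, 1308 of 1424 lower probes (91.9%) had one sign in 8 of 8 goats, as did 77 of 208 higher probes (37.0%). Over the 6 other goats the shares were 97.8% (1393 probes) and 94.7% (197 probes), so the gap between the directions was mostly that of these 2 goats. The calls rest on the same values as the signs, so high shares among them are no separate evidence. A shared sign is also easier to reach over 6 goats than over 8. In single goats, which give 1 array per source and so no test, the number of probes at least 2-fold lower in MFG ran from 1064 to 5403 with a median of 1966.5, and the number at least 2-fold higher from 171 to 2292 with a median of 887. Lower probes outnumbered higher ones in 8 of 8 goats, by 1471 probes on average (exact paired permutation test, two-sided, p = 0.00781, the smallest that 8 pairs allow). Without PWI goats 2 and 4 the excess was 903 (exact p = 0.0312, the smallest that 6 pairs allow). It held in 8 of 8 goats under median centring and also for the processed signals and the deposited table. However, these scalings moved the median of all probes down, to -0.61, -0.21 and -0.21. Such a shift adds lower probes and removes higher ones, so the excess under them is no separate evidence. The excess held in 7 of 8 goats with Cy5 alone (755 probes, exact p = 0.0625) and in 6 of 8 with spike-in centring (2863 probes, exact p = 0.141). It thus did not pass under either. PWI goat 2, whose MFG array stood apart, had the most lower probes, 5403, and a median difference over all probes of -0.31, against -0.18 in PWI goat 4 and between -0.002069 and 0.04 in the other 6 goats.

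**Figure D4:**
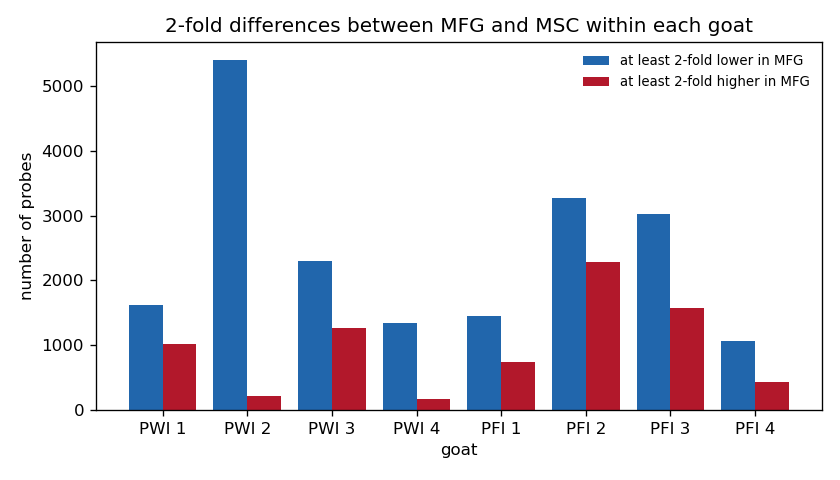
Number of probes (y axis) at least 2-fold lower (blue) and at least 2-fold higher (red) in MFG than in MSC within each goat (x axis, breed and goat number), with no test. Lower probes are more numerous in all 8 goats, and the counts of lower probes run from 1064 in PFI goat 4 to 5403 in PWI goat 2.

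The goats differed in how near their MSC profile was to that of MFG. Over the probes well above background on all 16 milk arrays, each array's log2 ratios were correlated with the mean MFG profile of the other goats. These correlations are across probes, share the reference and the processing, and carry no p. The 8 MFG arrays correlated at 0.879 to 0.989 with the MFG profile of the other goats, with PWI goat 2 lowest and the others at 0.967 or more. The MSC arrays spread from 0.625 to 0.914 with the MFG profile, and the MFG arrays from 0.738 to 0.871 with the MSC profile. MSC of PWI goat 4, PFI goat 1 and PFI goat 4 lay at 0.914, 0.912 and 0.902, and at 0.927, 0.940 and 0.928 with the MSC profile of the other goats. MSC of PFI goats 2 and 3 lay at 0.625 and 0.673, against 0.891 and 0.923 with other MSC. PWI goat 4, PFI goat 1 and PFI goat 4 had the fewest probes 2-fold lower in MFG, 1342, 1458 and 1064, and PFI goats 2 and 3 had 3277 and 3033. The MFG array of PWI goat 4 is one of those that stood apart. These counts come from the same MSC arrays as the correlations, so they are no separate evidence of the spread. Markers of leukocytes or epithelial cells could not be set beside this spread, since no probe carries a gene name here.

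Few probes passed as detected in one milk source alone. Of the 43653 probes, 20631 had a Cy5 signal well above background on all 8 MSC arrays, and 186 of these on none of the 8 MFG arrays. On all 8 MFG arrays 16519 had it, and 24 of these on no MSC array. The flag is a threshold and does not show that a transcript is absent. The 186 became 680 with the MFG arrays of PWI goats 2 and 4 left out and 333 without PWI goat 2. The 24 became 29 without both arrays, 40 without PWI goat 1 and 39 without PFI goat 2. Of the 186 probes, 110 also passed the threshold as lower in MFG, against 6076 of all 27383 probes tested (22.2%). The 186 were chosen on the same Cy5 signals that enter the ratios, so this is no separate evidence. Among the 2169 lower probes, 1612 were well above background on all 8 MFG arrays, 541 on 1 to 7 and 16 on none. These counts include the arrays of PWI goats 2 and 4, on which more probes passed as detected. Among the 361 higher probes 346 were so on all 8 MSC arrays and 3 on none. Of the 15915 tested probes measured on all 16 milk arrays, 346 were at least 2-fold higher and 1612 at least 2-fold lower.

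Of 6481 accessions with at least 2 tested probes, 1766 had at least 2 called probes. Within 1682 of these (95.2%) the called probes shared a direction, upward in 492 and downward in 1190. At least 2-fold, 450 of 453 accessions did, 46 of them higher and 404 lower. Of all calls 36.3% were higher, and of calls at least 2-fold 14.3%, so many probes would share a direction anyway. The agreement expected from these shares was not computed. Calls were spread over the kinds of accession on the array. Among 19350 probes of RefSeq mRNAs 8.29% were at least 2-fold lower and 1.36% at least 2-fold higher, and among 3284 probes of Ensembl transcripts 5.66% and 1.04%. Calls were most frequent at bright probes. With probes split by mean Cy5 level into 4 equal classes, in the brightest class 18.3% were at least 2-fold lower and 3.65% at least 2-fold higher, and in the dimmest class 1 probe was lower and 0 were higher. In that dimmest class limma called 190 probes higher and 456 lower with no fold limit. The offset added to the background correction draws ratios of dim probes toward 0, so the dim class sets no bound on their change.

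The counts on both sides depended on the scaling. Median centring of each array, in place of loess, moved the median of all probes to -0.61 from -0.02, and the scanner's processed signals moved it to -0.21. A downward shift of all probes keeps lower calls and removes higher ones, so calls kept under these scalings do not show that the lower side is firmer. Of the 2169 probes at least 2-fold lower, 2169 were still called lower with median centring, 2159 with processed signals, 2155 with the deposited table, 2103 with Cy5 alone and 2165 with each array centred on its 10 spike-in probes. Of the 361 probes at least 2-fold higher, these numbers were 137, 223, 214, 330 and 281. The share of higher probes among the calls was 36.3% as reported, 4.70% with median centring, 22.6% with processed signals, 21.4% with the deposited table, 46.9% with Cy5 alone and 45.9% with spike-in centring. The number of probes at least 2-fold lower itself rose from 2169 to 9007 with median centring, 6117 with processed signals and 4647 with spike-in centring. Counted from each setting's own median, without a test, 2095 probes lay at least 2-fold below and 376 above as reported, 4384 and 442 with median centring, 5019 and 2016 with processed signals, 2839 and 1682 with Cy5 alone, and 4375 and 447 with spike-in centring. A set of 40 probes was at least 2-fold higher and a set of 1800 at least 2-fold lower under all 6 scalings, and the 4 probes named belong to these sets, whose sizes also carry the shift. With MFG of PWI goats 2 and 4 left out, 730 probes were higher and 1983 lower beyond 2-fold. Leaving out the MFG array of PWI goat 2 alone gave 5247 higher probes. Omitting PWI goat 1 left 2258 higher probes, omitting PFI goat 2 left 2010 and omitting PFI goat 3 left 2289. When the background fit included spots flagged as outliers, 1394 probes were higher and 4138 lower, and with only the outlier flags of the spots themselves applied 1036 and 3646.

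**Figure D5:**
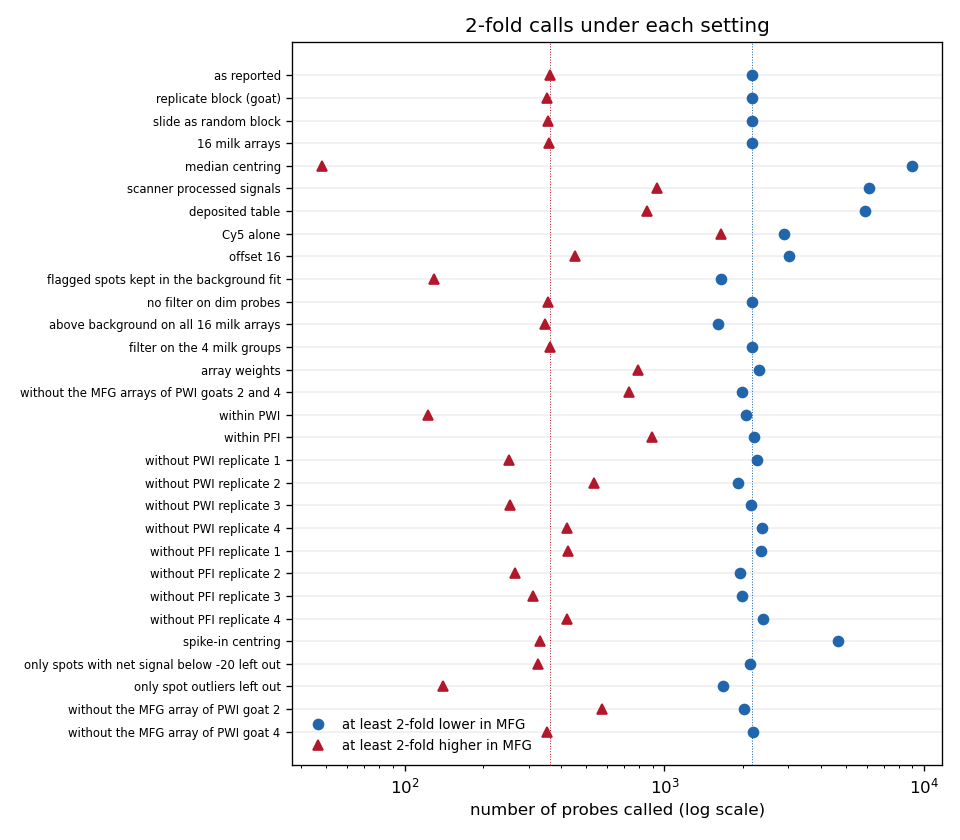
Number of probes called at least 2-fold lower (circles) and at least 2-fold higher (triangles) in MFG (x axis, log scale) as reported and under each other setting (y axis), with dotted lines at the reported 2169 and 361. Lower calls exceed higher calls under every setting shown, for example 2883 against 1647 with Cy5 alone.

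The reference channel, which held the same RNA pool on every array, also differed between the arrays of the milk sources. Cy3 normalized alone passed the limma threshold at 10818 probes (39.5%), 5171 higher and 5647 lower on MFG arrays. These differences were small, with 204 probes (0.745%) at least 2-fold. At the 9534 probes called in the ratios the absolute log2 difference had a median of 0.17 for Cy3, against 0.87 for Cy5 normalized without the reference. Over the 2169 probes at least 2-fold lower, the median was -0.03 in Cy3 and -1.67 in Cy5, and over the 361 at least 2-fold higher 0.06 in Cy3 and 1.35 in Cy5. These probes were chosen on the ratio of Cy5 to Cy3, so the contrast of the channels does not measure how small the difference between arrays is. Each channel was also quantile normalized between arrays, which removes differences common to all probes. At 209 called probes the reference moved the opposite way by more than the ratio did. Small differences in the ratios cannot be told apart from this difference between the arrays, and the part of the scan day in them was not tested.

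The signal of MFG was concentrated in fewer probes. In MFG 50% of the net Cy5 signal came from 174 to 517 probes (median 213), and in MSC from 285 to 527 (median 427.5). The number was lower in MFG in 7 of 8 goats, with a mean difference of -155.2 (exact paired permutation test, two-sided, p = 0.0234). The exception was PWI goat 2, with 517 in MFG, and without PWI goats 2 and 4 the other MFG arrays lay between 174 and 231, below all MSC arrays (exact p = 0.0312, the smallest that 6 pairs allow). The reference channel moved with it, from a median of 899.5 probes on MSC arrays to 610.5 on MFG arrays, lower in 7 of 8 goats (exact p = 0.0156). Since the reference RNA was the same, the part of the arrays in the difference of Cy5 was not tested.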

How the data were processed

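Total RNA of each sample was hybridised in Cy5 against the blood reference in Cy3, with no dye swap. The authors deposited scanner output, which the headers credit to Agilent Feature Extraction (10.7.3.1). It holds, per the file headers, spot intensity per channel, outlier and background flags, and a log10 ratio. The deposited value table equals that log10 ratio. Median spot and local background intensity were corrected by normexp (offset 50) on spots without any outlier flag, normalized by loess with control spots at weight 0, and averaged per probe as log2 ratios. A probe was tested where any of the 6 groups had its Cy5 signal well above background on each of its 4 arrays. Tests were run with limma 3.58.1 (R 4.3.3) over 24 arrays, contrasting the breed-averaged sources, at a Benjamini-Hochberg adjusted p of 0.05. The fit was tested on simulated data, but the outcome is not reported here and lends these results no support. The number of arrays limits the precision. The limma p-values rest on the spread among arrays within the 6 groups, blood included. That spread mixes differences between goats with differences between hybridisations. Each group had a slide of its own and a single scan day, so spread between slides or days does not enter. Over the 16 milk arrays alone, the limma adjusted p of the 4 probes named ran from 8.42e-06 to 1.84e-05. Over all 24 arrays it ran from 2.2e-08 to 1.48e-07. Calls, however, rose from 9534 to 10779 over the 16 milk arrays.

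Whether flags on the local background also remove a spot was settled after the counts under both readings had been seen. They were 3458 higher and 6076 lower with these flags applied, and 1036 and 3646 without. Of 76 outlier spots with a net signal under -20, all 76 were flagged.

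Signs over the 6 goats other than PWI 2 and 4 were counted after seeing the data. The probes and lists were chosen with earlier results of these data known. For each accession meeting the naming rule given with the probes, the brightest probe was taken, and the 2 largest differences in each direction are given. Gene lists and cell type markers could not be looked up without gene symbols and were not analysed here. Same-numbered MFG and MSC arrays are paired by animal, read from the titles and the design. The correlation of their deviations from the group means ran from -0.268 to 0.222. Within the breed, the own number gave the highest correlation only for PFI goats 1 and 3. This check thus gave the pairing no support, and the counts over goats and the paired tests rest on it.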

Additional observations from a re-analysis of the deposited data

Results flagged for a closer look

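A single array lay apart in 3 of the 52 groups of 4 values examined, and about 2.6 such cases arise by chance. The MFG array of PWI goat 2 took 50% of its net Cy5 signal from 517 probes, against 210 to 237 on the other MFG arrays of its breed. Its reference channel took the same share from 883 probes, against 555 to 606. The MSC array of PWI goat 4 took 50% of its Cy5 signal from 324 probes, against 427 to 433 on the other MSC arrays of its breed.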

How the results depend on the processing

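The 4 probes named were called with the same sign under each of the 28 or 29 alternatives run for them, with log2 differences from 2.77 to 4.29 for A_73_P036246, 2.56 to 4.29 for A_73_114883, -6.61 to -4.33 for A_73_P095346 and -6.60 to -4.33 for A_73_120005 (limma adjusted p at most 0.000969). They were chosen from these same arrays for large differences with one sign in every goat, so their staying called is no separate evidence. Counts of calls moved by more than 1.5 times as follows, and the cause was not tested. Median centring gave 856 higher and 17353 lower, 48 and 9007 at least 2-fold, and 17 and 2797 at least 4-fold. Processed signals gave 936 and 6117 at least 2-fold and 115 and 2093 at least 4-fold. The deposited table gave 2102 higher, 858 and 5934 at least 2-fold, and 111 and 2073 at least 4-fold. Cy5 alone gave 6583 higher, 1647 at least 2-fold and 147 at least 4-fold. Flagged spots kept in the background fit gave 1394, 130 and 22 higher at these limits. Probes above background on all 16 milk arrays gave 3916 lower. Array weights gave 8109 higher and 794 at least 2-fold. Leaving out the MFG arrays of PWI goats 2 and 4 gave 5504 and 730. Within PWI, 288 were higher, 3101 lower and 123 at least 2-fold higher, and within PFI 897 were at least 2-fold higher.

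The following were chosen after seeing the data. Spike-in centring gave 6099 higher, 4647 at least 2-fold lower and 1488 at least 4-fold lower. Ignoring flags on the local background gave 1036 higher and 3646 lower, with 141 at least 2-fold and 20 at least 4-fold higher. Leaving out only spots with net signal below -20 gave 7692 calls. The MFG array of PWI goat 2 left out alone gave 5247 higher and 576 at least 2-fold. The excess of lower probes per goat and the number of probes that make up 50% of the signal were also measured after seeing the data. The excess was 755 with Cy5 alone (exact permutation p = 0.0625) and 2863 with spike-in centring (exact p = 0.141).

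Leaving out each goat in turn gave 2010 to 4669 higher and 4870 to 6123 lower, 253 to 537 and 1915 to 2403 at least 2-fold, and 32 to 45 and 475 to 674 at least 4-fold. Probes detected in MSC alone were 189 to 333, and in MFG alone 25 to 40. The reference channel gave 8660 to 12400 calls, 5288 within PWI and 10421 with the replicate block. The excess per goat was 941 to 1595. Probes on all MSC and no MFG arrays were 680 without the 2 arrays, 384 within PWI and 1186 within PFI, and those on all MFG and no MSC arrays 132 and 106. With goat number as a replicate block 9322 probes were called, 3342 higher and 5980 lower (352 and 2177 at least 2-fold, 36 and 563 at least 4-fold), with 3106 of the 3458 higher and 5800 of the 6076 lower calls kept. The block changed the call of no probe named. Slide as a random block gave 9046 calls and the 16 milk arrays alone 10779. Gene list alternatives were not run. Probes not well above background set no lower limit on the change.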
